A study of Mus musculus with 4 samples.

Results

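The Z-disc genes described here are Actn2, Actn3, Ldb3, Myoz1, Myoz2, Myoz3, Tcap, Csrp3, Myot and Pdlim3, taken by gene symbol from the 4 deposited expression tables. All 10 were listed in each table, out of 23686 gene symbols that the 4 tables share. The cells are C2C12, a line of mouse myoblasts whose cells exit the cycle and fuse into myotubes after transfer to differentiation medium (DM). Total RNA depleted of rRNA was sequenced from myoblasts (MB) at DM -24 h and from myotubes (MT) at DM 72 h, with no siRNA named for either. PolyA RNA was sequenced at DM 48 h from cells transfected with a control siRNA (si-NC) or with an siRNA against the RNA-binding protein hnRNPL (si-hnRNPL). Each condition has 1 library, made from a single cell line, so that no difference given here has a replicate check and no test was possible. Levels are FPKM, fragment numbers corrected for transcript length and for library size, each with the 95% interval that the authors' quantification gave which describes counting and read assignment inside that library and no spread between cultures.

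The Z-disc is the border of the sarcomere, where the barbed ends of actin thin filaments from neighbouring sarcomeres are anchored. Dimers of alpha-actinin, encoded in muscle by Actn2 and Actn3, crosslink these filaments and bind a set of adaptor proteins. Among the adaptors are the PDZ-LIM proteins Ldb3 and Pdlim3, the myozenins Myoz1, Myoz2 and Myoz3, which also bind the phosphatase calcineurin, the LIM-only protein Csrp3, myotilin (Myot) and telethonin (Tcap), which joins the ends of titin. Z-discs form during terminal differentiation, when nascent myofibrils mature into striated ones.

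The labelled cell states were set against marker genes. Of the 6 myotube markers, Myog, Mymk, Ckm, Acta1, Myh3 and Mylpf, 6 were higher in MT than in MB, and their summed level was 16.1 FPKM in MB and 1602 FPKM in MT. The summed level of 6 markers of proliferating cells was 644 FPKM in MB and 104 FPKM in MT, where each of them still lay at 13.7 FPKM or more. In bulk RNA, fewer cells of a type and less RNA per cell cannot be told apart. The widths of the intervals correspond to 14592480 fragments for si-hnRNPL and 21341051 for si-NC, against 54442423 for MT and 59960176 for MB, so that levels in the polyA libraries carry wider intervals. Below 200, these numbers were whole to within 0.02 for 91.4% of entries in MB and 91.1% in MT but for 39.9% in si-hnRNPL and 41.8% in si-NC. The entries of MB and of MT include 36780 transcript units assembled from reads, and those of the polyA libraries include none, so these sets differ. In the polyA libraries the numbers are thus effective numbers and no counts of reads. Some numbers in MB and MT are not whole either, such as 3.24 for Csrp3 in MB.

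The 10 genes lie at separate loci in mm9, the build of the tables. The fewest annotated exons were in Tcap, with 2 exons in 1.1 kb at 98245125 to 98246267 of chromosome 11. The longest locus was Actn2, with 21 exons over 71.3 kb at 12361694 to 12432999 of chromosome 13. Actn3 also has 21 exons, within 16.7 kb at 4861216 to 4877909 of chromosome 19. The aligned coding sequences of Actn2 and Actn3 were 75.7% identical, and 16 of the 2967 stretches of 36 bases in the Actn2 transcript (0.539%) also occurred in that of Actn3. Between the myozenins the coding sequences were 60.8% to 62.0% identical and no stretch of 36 bases was shared. Reads shorter than 36 bp had been discarded by the authors.

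RefSeq promoters (GRCm38.p6) were at hand for 5 of the 10 genes, Actn2, Ldb3, Myoz2, Csrp3 and Pdlim3. The 250 bases upstream of the start are printed 5' to 3' on the gene's strand for Myoz2, Csrp3 and Pdlim3, which had the 3 largest differences between MB and MT on the log2(FPKM + 1) scale, and for Ldb3, whose window differs from theirs in the motifs it holds. Capitals mark E-boxes (CANNTG), the hexamer that MyoD and other basic helix-loop-helix factors can bind, and Csrp3 is shown for both of its annotated starts. Ldb3 also has a second annotated start, whose window is not printed. The bases after the start were found in the gene's GENCODE transcript for Myoz2, Pdlim3 and the printed start of Ldb3. They were not found there for either start of Csrp3 or for the second start of Ldb3. The windows are chr3:123034988-123035237 (minus strand) for Myoz2, chr7:48848052-48848301 (minus strand) and chr7:48843672-48843921 (minus strand) for the first and the second start of Csrp3, chr8:45885237-45885486 (plus strand) for Pdlim3 and chr14:34588682-34588931 (minus strand) for Ldb3.
Myoz2: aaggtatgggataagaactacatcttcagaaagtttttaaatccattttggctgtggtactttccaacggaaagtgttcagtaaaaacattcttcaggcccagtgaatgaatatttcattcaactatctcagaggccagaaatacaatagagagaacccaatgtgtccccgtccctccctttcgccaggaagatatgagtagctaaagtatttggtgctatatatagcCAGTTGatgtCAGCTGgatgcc
Csrp3, first start: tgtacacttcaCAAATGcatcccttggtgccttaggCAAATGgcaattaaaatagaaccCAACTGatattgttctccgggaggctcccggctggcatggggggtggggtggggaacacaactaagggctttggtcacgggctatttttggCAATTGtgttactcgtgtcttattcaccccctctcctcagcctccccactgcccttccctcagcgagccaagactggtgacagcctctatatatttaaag
Csrp3, second start: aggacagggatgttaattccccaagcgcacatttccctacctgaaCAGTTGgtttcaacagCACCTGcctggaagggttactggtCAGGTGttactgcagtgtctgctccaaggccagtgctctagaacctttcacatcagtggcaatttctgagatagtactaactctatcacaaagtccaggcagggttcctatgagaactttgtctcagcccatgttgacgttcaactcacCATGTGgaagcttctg
Pdlim3: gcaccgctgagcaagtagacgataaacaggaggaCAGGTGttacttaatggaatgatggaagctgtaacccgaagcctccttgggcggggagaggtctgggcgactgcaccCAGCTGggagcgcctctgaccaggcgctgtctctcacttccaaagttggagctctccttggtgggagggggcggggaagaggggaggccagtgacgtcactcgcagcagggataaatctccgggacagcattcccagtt
Ldb3: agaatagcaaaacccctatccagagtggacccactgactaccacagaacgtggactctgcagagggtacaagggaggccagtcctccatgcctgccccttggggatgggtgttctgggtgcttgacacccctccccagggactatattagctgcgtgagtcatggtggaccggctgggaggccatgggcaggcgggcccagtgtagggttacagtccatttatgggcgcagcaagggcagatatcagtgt

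With both strands searched, an E-box was present upstream of 4 of the 5 genes, and 66.2% of all 32851 RefSeq promoter windows of this length also hold one. The E-box CAGCTG, which many myogenic sites carry, was found in Myoz2 at 12 bases and in Pdlim3 at 139 bases upstream of the start, and 4271 of the 32851 windows hold it. A MEF2 site, the motif of the myocyte enhancer factors, was found in Myoz2 at 33 bases upstream of the start, against 2.92% of all windows. Ldb3 had no E-box in the window of either annotated start. A CArG box, the motif of serum response factor, lay 35 bases upstream of the printed start of Ldb3 and 109 bases upstream of the other. Of all windows, 1.47% hold one. The TATAAA motif was in none of the windows of the 5 genes and in 12.4% of all windows. These are matches of letters and carry no measurement of binding.

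In MB, only Actn3, Ldb3 and Pdlim3 of the 10 genes had an FPKM of at least 1, and Actn2 and Myot were listed at 0. In MT the number with an FPKM of at least 1 was 7, in si-NC 6 and in si-hnRNPL 6. The summed FPKM of the 10 genes was 15.6 in MB, 261 in MT, 255 in si-NC and 317 in si-hnRNPL. Actn3 and Pdlim3 made up 74.3% of this sum in MB, 72.5% in MT, 76.5% in si-NC and 72.5% in si-hnRNPL. Actn3 was the highest of the 10 in all 4 libraries, and in MT it ranked 385th among 17932 named entries above 0.

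The order of levels in MT was Actn3, Pdlim3, Csrp3, Ldb3, Myoz2, Tcap, Actn2, Myoz1, Myot and Myoz3, from the highest to the lowest. The intervals of neighbours in this order overlapped for Csrp3 and Ldb3 and for Myot and Myoz3, and were separate for the others. In si-NC the order was Actn3, Pdlim3, Myoz2, Ldb3, Csrp3, Actn2, Tcap, Myoz1, Myoz3 and Myot, where Myoz2 and Ldb3 overlapped, as did Myoz1 with Myoz3 and Myoz3 with Myot. MT and si-NC differ in time, RNA selection and sequencing, so their levels stand side by side without a fold. In MB the intervals of Ldb3 and Pdlim3 overlapped, and so did those of all neighbours from Csrp3 downwards.

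**Figure D1:**
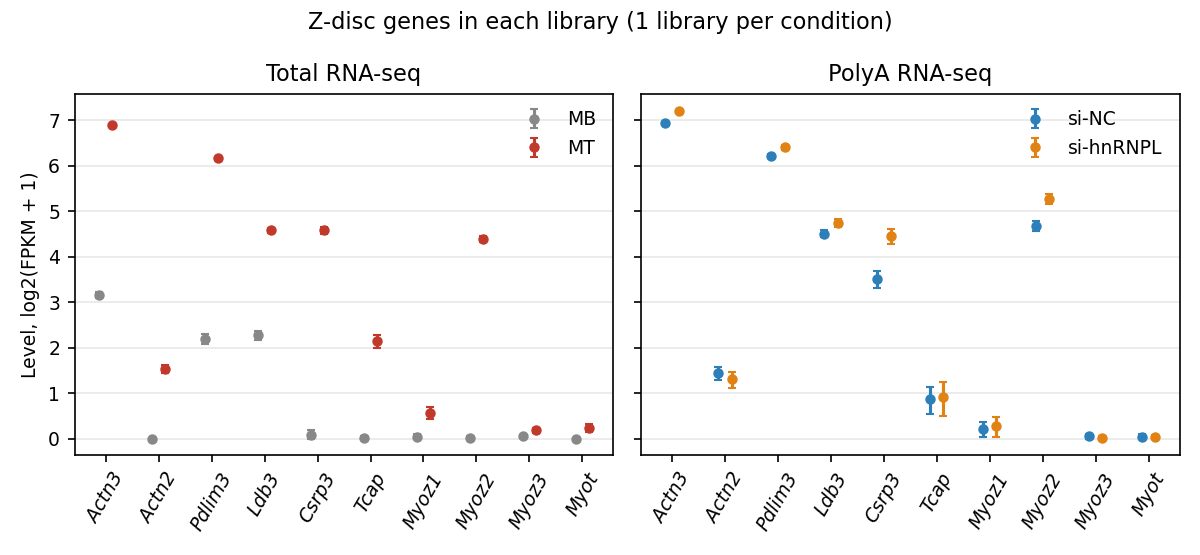
Level of each Z-disc gene as log2(FPKM + 1) in MB and MT (total RNA, left) and in si-NC and si-hnRNPL (polyA RNA, right). Points are single libraries and bars the deposited 95% intervals. In MT, Actn3 at 118 FPKM and Pdlim3 at 70.9 FPKM stand above the others, while Myoz3 and Myot lie near 0 in every library.

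The first comparison asked how these genes differ between MB and MT. The change of a gene is given as log2((FPKM + 1) ratio) with MB as the denominator, a scale that compresses the change of low genes. A gene was counted as higher or lower at an absolute value of 0.58 or more, the study's fold change of 1.5. Of the 10 genes, 7 were higher in MT (Actn2, Actn3, Ldb3, Myoz2, Tcap, Csrp3 and Pdlim3) and 0 were lower, while 7.81% of the 24850 named entries were higher and 13.7% lower. The median change was 2.22 over the 10 genes and 0 over all named entries. The median was -0.23 over the 10791 named entries at 1 FPKM or more in MB and in MT, and a change can be read relative to that shift.

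Of the actin crosslinkers, Actn3, the alpha-actinin of fast fibres, was at 7.96 FPKM (7.58 to 8.34) in MB and 118 FPKM (117 to 120) in MT. The FPKM ratio was 14.9 and the change 3.74 (3.67 to 3.80). It was thus already detected in MB, where it ranked 7403rd among 17246 named entries above 0. Actn2, the alpha-actinin found in all striated fibres and in the heart, was listed at 0 in MB and at 1.89 FPKM (1.72 to 2.07) in MT, a change of 1.53 (1.44 to 1.62). In MT the summed level of the muscle alpha-actinins was thus almost entirely Actn3.

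Both PDZ-LIM adaptors, which bind alpha-actinin, were detected in MB and higher in MT. Pdlim3 was at 3.60 FPKM (3.25 to 3.95) in MB and 70.9 FPKM (69.3 to 72.4) in MT, an FPKM ratio of 19.7 and a change of 3.97 (3.86 to 4.08). Ldb3 was at 3.83 FPKM (3.49 to 4.17) in MB and 22.9 FPKM (21.9 to 23.9) in MT, an FPKM ratio of 5.98 and a change of 2.31 (2.19 to 2.43). The levels of the pair overlapped in MB and were well separated in MT. Among these 10791 entries, the change of Pdlim3 ranked 13th from the top, that of Actn3 15th and that of Ldb3 87th.

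Csrp3, also called muscle LIM protein, was at 0.0655 FPKM (0 to 0.138) in MB and 23.0 FPKM (21.8 to 24.2) in MT, a change of 4.49 (4.37 to 4.61). Tcap was at 0.0153 FPKM (0 to 0.0459) in MB and 3.43 FPKM (2.98 to 3.87) in MT, a change of 2.12 (1.96 to 2.26). The MB values of these genes correspond to 3.24 fragments for Csrp3 and 1 fragment for Tcap, so that the size of either difference on a ratio scale is not set by these data. Myot, which binds alpha-actinin and filamin C, was listed at 0 in MB and at 0.180 FPKM (0.116 to 0.244) in MT, and its change of 0.24 did not reach the threshold.

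The myozenins differed among themselves. Myoz2, the isoform of slow fibres and the heart, was at 0.0121 FPKM (0 to 0.0364) in MB, which corresponds to 1 fragment, and at 19.9 FPKM (18.9 to 20.8) in MT, a change of 4.37 (4.29 to 4.43). Myoz1, the isoform of fast fibres, was at 0.0319 FPKM (0 to 0.0688) in MB and 0.487 FPKM (0.346 to 0.627) in MT, a change of 0.53 (0.37 to 0.66) that missed the threshold. Myoz3 was at 0.0415 FPKM in MB and 0.136 FPKM (0.0921 to 0.180) in MT, a change of 0.13. In MT, Myoz2 thus held nearly the whole myozenin level, while Actn3, an isoform of fast fibres, held nearly all of the level that it shares with Actn2. With changes centred on the median of expressed genes, Myoz1 reached 0.75 and passed the threshold.

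**Figure D2:**
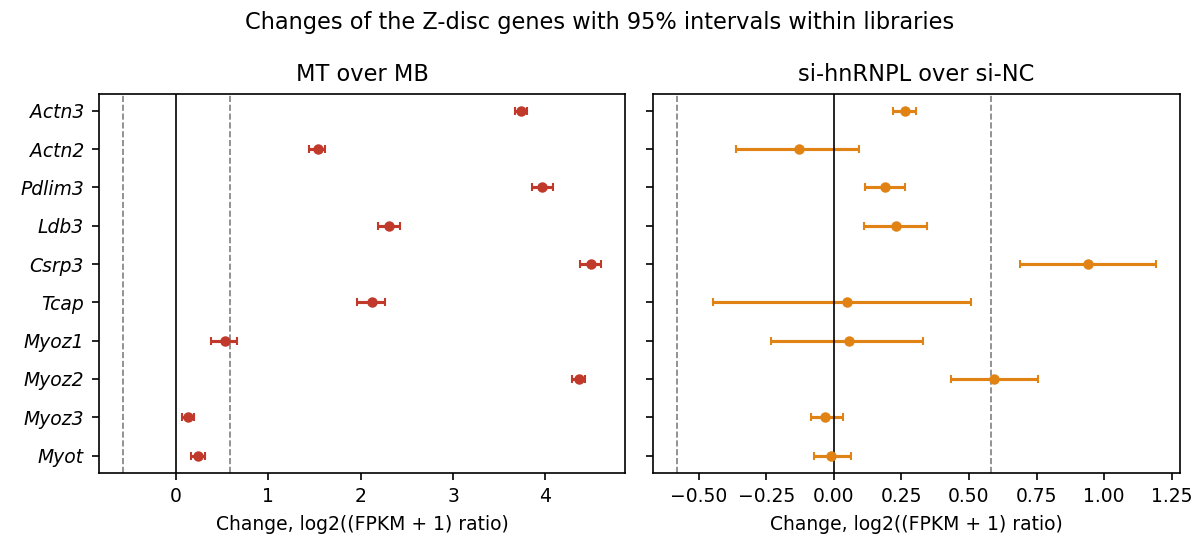
Change of each Z-disc gene as log2((FPKM + 1) ratio), MT over MB on the left and si-hnRNPL over si-NC on the right, on separate scales. Points are the changes, bars combine the deposited 95% intervals of both libraries, and dashed lines mark an absolute change of 0.58. For MT over MB, 7 of the 10 genes lie past the upper line, and for si-hnRNPL over si-NC only Csrp3 (0.94) and Myoz2 (0.59) do.

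A list of paralogs of these genes, taken as broadly expressed, gave a different picture. Of 9 such genes, 1 was higher in MT (Pdlim4, 1.02) and 5 were lower (Actn1, Actn4, Pdlim1, Csrp1 and Csrp2), with a median change of -0.62. All 9 were at 1 FPKM or more in MB and in MT, and of the 10791 named entries of that kind 1293 were higher and 3115 (28.9%) lower. Actn1 was at 106 FPKM in MB and 47.8 FPKM in MT, and Actn4 at 54.9 FPKM in MB and 25.9 FPKM in MT. Csrp2 was at 113 FPKM in MB and 29.4 FPKM in MT, a change of -1.91. The fall of Csrp1 (-0.62) missed the threshold once changes were centred (-0.39) or scaled by the upper quartile (-0.34), and the change of Pdlim5 (0.50) passed it under both (0.73 and 0.78).

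Seen as shares of a family's summed FPKM, Actn2 and Actn3 held 4.73% of the alpha-actinin level in MB and 62.0% in MT. Pdlim3 and Ldb3 held 2.49% of the PDZ-LIM level in MB and 21.6% in MT. Csrp3 held 0.0231% of the level of the CSRP proteins in MB and 14.1% in MT. Actn2 and Actn3 thus became the larger part of the alpha-actinins in MT. Pdlim3 with Ldb3, and Csrp3, stayed the smaller part of the levels of their families. In the polyA libraries the muscle alpha-actinins held 31.7% in si-NC and 35.2% in si-hnRNPL.

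**Figure D3:**
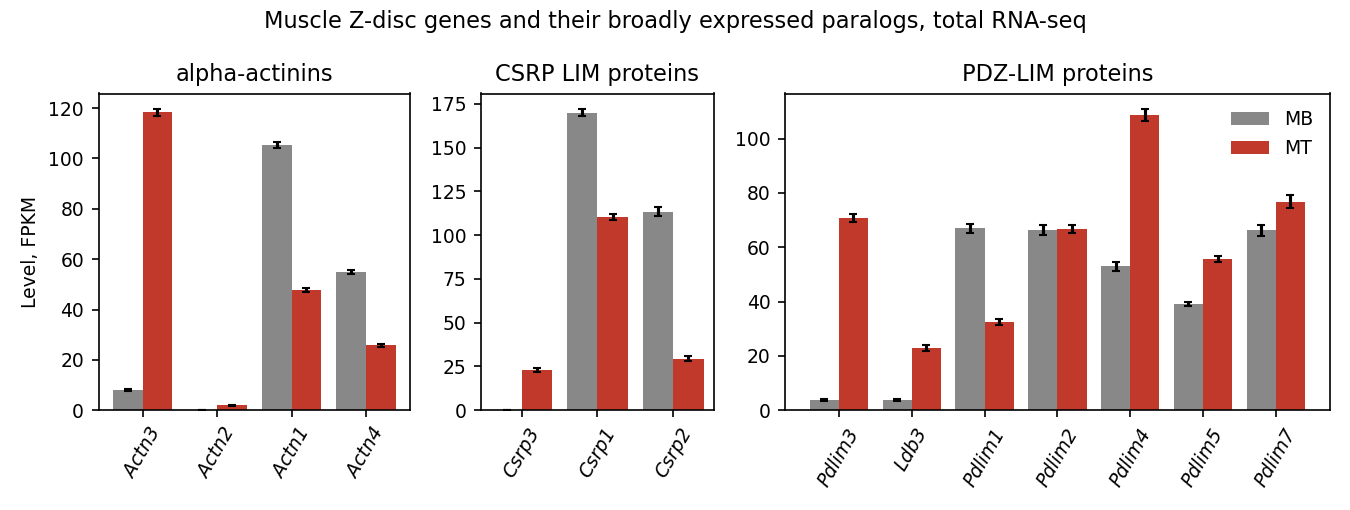
FPKM of Z-disc genes and of their listed paralogs in MB and MT, for the alpha-actinins, the CSRP LIM proteins and the PDZ-LIM proteins, on separate scales. Bars are single libraries with the deposited 95% intervals. Actn3 exceeds Actn1 and Actn4 in MT (118, 47.8 and 25.9 FPKM), whereas Csrp3 (23.0 FPKM) stays below Csrp1 and Csrp2 (110 and 29.4 FPKM).

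Other proteins of the Z-disc and its partners were taken as a list of 24 genes. Of these, 14 were higher in MT and 1 was lower (Fhl1, -0.89), with a median change of 0.95, and after centring Cryab (0.78) and Xirp2 (0.69) passed the threshold too. The largest changes were those of Ankrd2 (5.14), a stress-responsive ankyrin repeat protein, of the giant filament proteins titin (Ttn, 4.93) and nebulin (Neb, 4.76), and of Smpx (4.47), a small muscle protein. The MB values of Ankrd2 and Smpx correspond to 4 and 0.52 fragments. The size of these differences on a ratio scale is thus not set by these data. The intermediate filament protein desmin (Des) changed by 0.98 from 98.7 FPKM in MB, and filamin C (Flnc) by 0.81 from 26.3 FPKM in MB. Those genes were thus abundant before differentiation, unlike Ttn (0.310 FPKM) and Neb (0.0573 FPKM) in MB. Synpo2l, which lies 2877 bp from Myoz1 on chromosome 14, was at 26.1 FPKM in MT, where Myoz1 was at 0.487 FPKM, so that these neighbours were far apart in level.

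The total RNA tables also list transcript units assembled from the reads, and 16 of them lay within the locus of a Z-disc gene, 13 in Ldb3 and 3 in Pdlim3, all of them in introns. The units in Pdlim3 lay 24.8 to 27.3 kb from its start. Their levels were 0.104, 0 and 0.102 FPKM in MB and 9.20, 9.84 and 12.3 FPKM in MT, so that all 3 were higher, by 3.21, 3.44 and 3.59. The units in Ldb3 lay 10.4 to 35.3 kb from its start, at 0.378 to 1.12 FPKM in MB and 0.507 to 1.57 FPKM in MT. Of these, 12 of 13 had a larger value in MT but 0 passed the threshold, with a median change of 0.26. For several of them the interval of the change included 0, as for the unit at 35.3 kb (-0.12 to 0.37). For others it lay above 0, as for the unit at 13.9 kb (0.26 to 0.77). No share over all 36780 assembled units is given here, so whether the counts in Pdlim3 and Ldb3 are unusual cannot be read from them. Ldb3 itself changed by 2.31 and Pdlim3 by 3.97, so the units of Ldb3 changed less than their host. The log2(FPKM + 1) scale compresses the change of the Pdlim3 units, at 0 to 0.104 FPKM in MB, more than that of Pdlim3, at 3.60 FPKM. Whether those units changed less or more than Pdlim3 thus depends on the scale. The tables give no strand for these units, and whether they are parts of the host transcript was not tested.

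**Figure D4:**
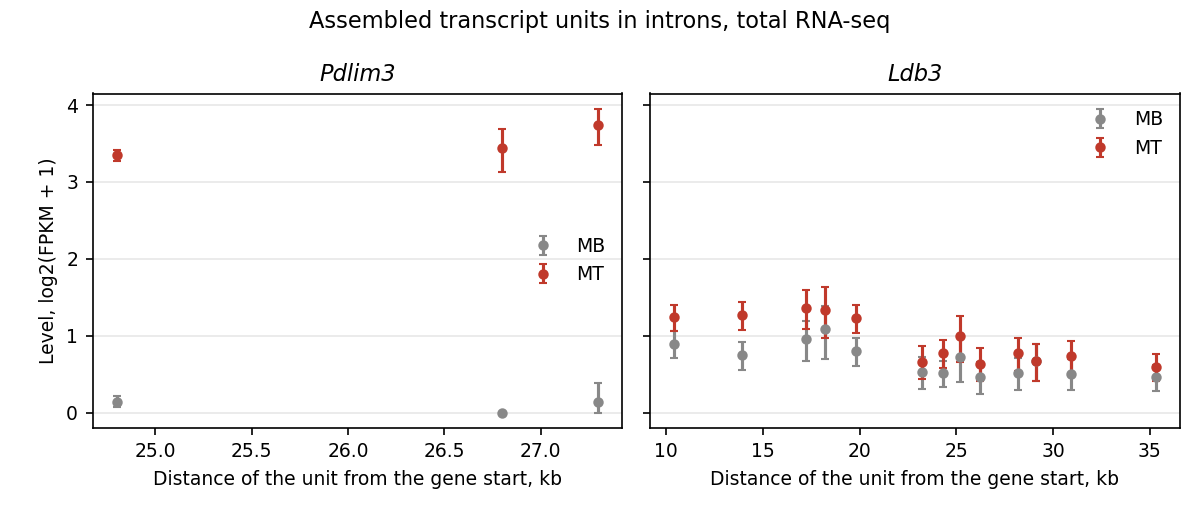
Level of the assembled intronic units in Pdlim3 (3 units) and Ldb3 (13 units) in MB and MT as log2(FPKM + 1), against the distance from the start of the gene in kb. Bars are the deposited 95% intervals. In Pdlim3 the MT values lie at 9.20 to 12.3 FPKM, above those of MB, while in Ldb3 MT values lie at 0.507 to 1.57 FPKM, close to MB.

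The second comparison asked how the Z-disc genes differ between si-hnRNPL and si-NC. The siRNA target Hnrnpl was at 95.1 FPKM (92.7 to 97.5) in si-NC and 85.9 FPKM (83.1 to 88.7) in si-hnRNPL, which is 90.4% of the control level, a change of -0.14 (-0.20 to -0.09). The target RNA was thus at most of its control level in the library labelled si-hnRNPL. The paper examined the knockdown by Western blot, and protein is not measured in these libraries. Of the 10 Z-disc genes, 2 were higher in si-hnRNPL (Csrp3 and Myoz2) and 0 were lower, while 0.688% of the 24992 named entries were higher and 0.416% lower. The median change was 0.12 over the 10 genes and 0 over all named entries.

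Csrp3 was at 10.5 FPKM (9.02 to 11.9) in si-NC and 21.0 FPKM (18.4 to 23.6) in si-hnRNPL, an FPKM ratio of 2.00 and a change of 0.94 (0.69 to 1.19). Its change ranked 28th from the top among 11090 named entries at 1 FPKM or more in si-NC and in si-hnRNPL. Myoz2 was at 24.6 FPKM (22.7 to 26.6) in si-NC and 37.7 FPKM (34.7 to 40.7) in si-hnRNPL, an FPKM ratio of 1.53 and a change of 0.59 (0.43 to 0.75) that ranked 113th. The intervals of the libraries did not overlap for either gene, but the interval of the Myoz2 change reached below the threshold. For Csrp3 the values rest on an effective 209 fragments (si-NC) and 264 (si-hnRNPL), and for Myoz2 on 612 and 618.

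The other members stayed within the threshold. Actn3 was at 122 FPKM (119 to 124) in si-NC and 146 FPKM (143 to 149) in si-hnRNPL, a change of 0.26 (0.22 to 0.30). Pdlim3 was at 73.3 FPKM (70.8 to 75.8) in si-NC and 83.8 FPKM (80.5 to 87.1) in si-hnRNPL, a change of 0.19 (0.12 to 0.26). Ldb3 was at 21.8 FPKM (20.7 to 23.0) in si-NC and 25.8 FPKM (24.1 to 27.5) in si-hnRNPL, a change of 0.23 (0.11 to 0.35). These intervals do not include 0, yet the SD of the change over the 11090 entries was 0.23, about the size of each of them. For Actn2, at 1.72 FPKM in si-NC and 1.48 FPKM in si-hnRNPL, the change was -0.13 (-0.36 to 0.09). The interval for Tcap was wide, with a change of 0.05 (-0.44 to 0.51) from 0.823 FPKM in si-NC to 0.887 FPKM in si-hnRNPL. Myoz1 changed by 0.06 (-0.23 to 0.33), and Myoz3 and Myot rested on an effective 1 to 4 fragments in either library, so that a difference was not detectable at this depth.

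Other listed genes also differed between these 2 single libraries, where 0.688% of all named entries were higher in si-hnRNPL and 0.416% lower. Of the 6 myotube markers, 3 passed the threshold upwards in si-hnRNPL (Ckm 0.71, Mylpf 0.69 and Acta1 0.61), with a range of 0.36 to 0.71 over the list and a summed level of 2594 FPKM in si-NC and 3957 FPKM in si-hnRNPL. Of the 6 proliferation markers, 2 passed it downwards (Mki67 -0.62 and Top2a -0.60, the latter -0.56 after upper-quartile scaling), with a range of -0.62 to -0.27 and a summed level of 274 FPKM in si-NC and 203 FPKM in si-hnRNPL. None of the 12 markers was at 0 in any library, and their part in the result was not tested. Of the 24 other Z-disc genes, 1 was higher (Ankrd2, at 36.01 FPKM in si-NC and 77.6 FPKM in si-hnRNPL, a change of 1.09) and 0 were lower, with a median change of 0.08. Of the 9 paralogs, 0 passed the threshold in either direction, with changes of -0.18 to 0.23.

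The change between si-hnRNPL and si-NC went with transcript length, with Spearman's rho of -0.45 for length and 0.43 for GC content across 9860 protein-coding genes of the same pair of libraries, where genes are not independent replicates. Csrp3 and Myoz2 have the shortest transcripts of the 6 members at 1 FPKM or more in si-NC and si-hnRNPL, at 899 bp and 1156 bp. Among the 493 genes in the length class of Csrp3 the median change was 0.21 and 6.09% were higher, and in that of Myoz2 the median was 0.13 and 1.62% were higher. After the medians of length and GC classes were subtracted, which was added once the data had been seen, the change of Csrp3 was 0.73 and that of Myoz2 was 0.49. Csrp3 thus kept its side of the threshold and Myoz2 did not. The same step left 0 of the 5 myotube markers with a value past the threshold (0.37 to 0.50) and 0 of the 6 proliferation markers (-0.46 to -0.20), while all 11 kept their sign. Actn3 was then at 0.19, Ldb3 at 0.30, Pdlim3 at 0.11 and Actn2 at -0.19.

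**Figure D5:**
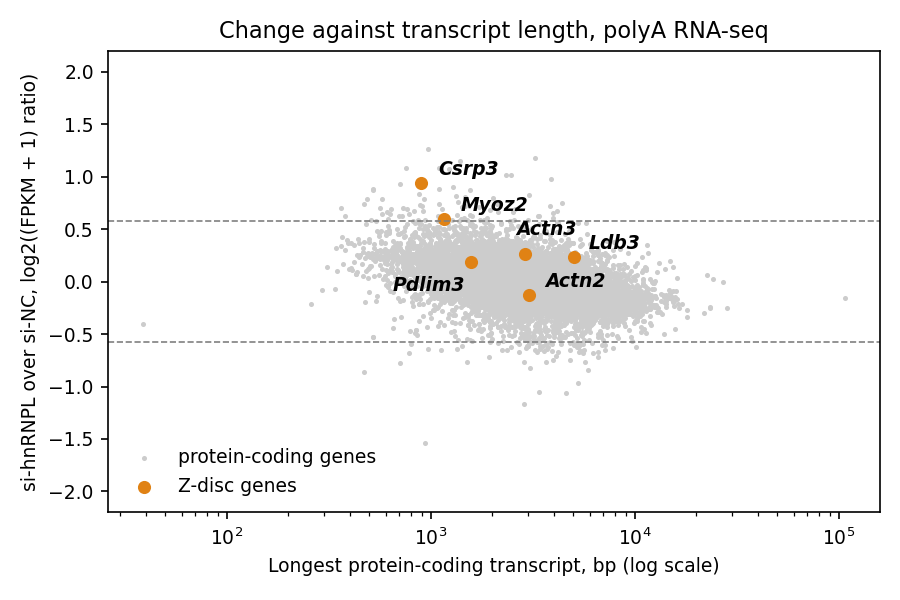
Change between si-hnRNPL and si-NC as log2((FPKM + 1) ratio) against the length of the longest protein-coding transcript in bp (log scale), for 9860 genes (grey) and 6 Z-disc genes (orange). Dashed lines mark an absolute change of 0.58. Csrp3, at 899 bp, and Myoz2, at 1156 bp, lie past the upper line in a range of lengths where the median change is above 0.

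The genes with the profile nearest to the median profile of the 10 Z-disc genes were sought among 10504 named genes, by the distance of log2(FPKM + 1) over the 4 libraries after subtraction of each gene's mean. They were Afap1l2 (0.0680), Arhgap24 (0.0924), Aspa (0.102), Dhrs7c (0.108) and Pink1 (0.147). Afap1l2 was at 2.50 FPKM in MB, 13.9 in MT, 11.3 in si-NC and 12.4 in si-hnRNPL. None of the 5 is among the other Z-disc genes listed above, and the likeness rests on 4 libraries.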

How the data were processed

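Per the labels, total RNA of MB and MT and RNA of si-NC and si-hnRNPL cells were sequenced, with 1 library per condition. That the siRNA libraries hold polyA RNA is taken from the paper's methods. Reads under 36 bp were discarded by the authors, who mapped the rest to mm9 with TopHat2 and deposited FPKM values with 95% intervals from Cufflinks. The fragment number of an entry was taken as the square of 2 x FPKM / (upper bound - FPKM), and holds no spread between cultures. In the polyA libraries it is an effective number and no count of reads. Changes are log2((FPKM + 1) ratio), and their intervals combine the distances to the deposited bounds of both libraries in quadrature. No count test was run, since the tables hold FPKM. The named genes were the members, Hnrnpl, fixed lists and the 5 nearest profiles. The members and lists were chosen with earlier results of these data known.

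Transcripts came from GENCODE M1 (mm9) and promoters from RefSeq. Identity was computed on coding sequences in place of the planned comparison of proteins, which was not used here. Mymk is listed as Tmem8c in the total RNA tables. Alternatives were pseudocounts of 0.1 and 0.01, a fold change of 2, an FPKM filter, centring, upper-quartile scaling, summing repeated symbols and a correction for length and GC content. Calculations used Python 3.11.15, numpy 2.4.6, pandas 2.3.3, scipy 1.17.1, Biopython 1.88 and matplotlib 3.10.9, and were tested on simulated data.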

Additional observations from a re-analysis of the deposited data

How the results depend on the processing

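For MT over MB, the median change of the 10 genes was 4.07 with a pseudocount of 0.1, 4.27 with 0.01, 2.44 after centring and 2.40 after upper-quartile scaling. Requiring 1 FPKM or more in MB and in MT left 3 genes, of which 3 were higher, with a median of 3.74. The number higher was 10 with either smaller pseudocount, 8 after centring and 7 at a fold change of 2, and 0 were lower throughout. Over all named entries, centring turned the split into 3060 higher and 2208 lower and upper-quartile scaling into 2919 and 2119. A pseudocount of 0.1 gave 3414 and 4265, one of 0.01 gave 5066 and 5205, and a fold change of 2 gave 931 and 1571.

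For si-hnRNPL over si-NC, 0 of the 10 genes were higher at a fold change of 2, 1 of 6 was higher after the correction for transcript length and GC content, and 1 was lower with a pseudocount of 0.01 (Myoz3, -0.94). All named entries gave 829 higher and 639 lower with a pseudocount of 0.1, 1738 and 1720 with 0.01, and 38 and 17 at a fold change of 2. The correction, run on 9860 protein-coding genes, gave 41 and 53. The requirement of 1 FPKM gave 1293 and 3115 for MT over MB and 126 and 84 here.

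Of the 10 genes, only Myot between the siRNAs had settings with opposite signs, at a level of 1 to 1.99 effective fragments. No paired analysis was possible because each condition has 1 library. The spread between cultures is unknown, and the MB values of Csrp3, Myoz1, Myoz2 and Tcap rest on 1 to 3.24 fragments each.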

Other observations

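The myozenins bind calcineurin, the calcium-dependent phosphatase that activates NFAT transcription factors, and 9 genes of that pathway were read from the same libraries. Between MB and MT, 3 were higher and 1 was lower, with a median change of -0.06. The catalytic subunit Ppp3ca was at 12.9 FPKM in MB and 30.0 FPKM in MT, a change of 1.16. Rcan2, a regulator that binds calcineurin, was at 3.03 FPKM in MB and 26.2 FPKM in MT, a change of 2.75. Nfatc4 changed by 0.61 from 2.00 FPKM in MB, just past the threshold. Nfatc1 was lower in MT (-0.67), and missed the threshold after centring (-0.44) and after upper-quartile scaling (-0.45).

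Between si-hnRNPL and si-NC, 0 of the 9 genes passed the threshold with the pseudocount of 1. With a pseudocount of 0.1 or 0.01, 2 were lower (Rcan2 and Nfatc2). Nfatc2 is listed at 0 in si-hnRNPL and rests on an effective 2.43 fragments in si-NC. Of the 24992 named entries, 104 were lower with the pseudocount of 1, 639 with 0.1 and 1720 with 0.01. With the pseudocount of 1, Rcan2 came nearest to the threshold, at 27.1 FPKM in si-NC and 18.1 FPKM in si-hnRNPL. Its change was -0.56 (-0.67 to -0.45), in the direction opposite to Myoz2.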
